A study of Mus musculus with 4 samples.

Results

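The genes described here encode regulators of G-protein signalling (RGS proteins) in Ba/F3 cells, an established mouse pro-B line whose survival and growth depend on interleukin-3 (IL-3). The list names 9 genes, Rgs1, Rgs2, Rgs3, Rgs10, Rgs12, Rgs14, Rgs16, Rgs18 and Rgs19. A gene was measured where the platform annotation gave a probe set that single symbol, and a gene's probe sets were averaged. That left 8 genes on 9 probe sets, out of 19935 genes in all, and Rgs10 was not analysed here. The genes were picked by name with the differences on these arrays already known, so their values are a description and carry no test.

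The arrays, 4 Affymetrix Gene 1.0 ST chips, read probes spread over the length of each transcript. Parental Baf3 cells kept in IL-3 gave 1 array. The other 3 came from Baf3 cells in which DOX (doxycycline) at 500 ng/ml switched on BCR-ABL, the fusion kinase of chronic myeloid leukaemia. Of these, arrays A and B came from cells without IL-3 and 1 array from cells with IL-3. All were grown to logarithmic phase. The labels name no DOX for the parental cells, and they do not say whether the BCR-ABL line is a single clone or whether A and B are separate cultures. BCR-ABL, DOX and the derived line therefore cannot be told apart, and the spread between A and B may be technical. The series was designed to find transcripts driven by BCR-ABL and by the growth factor, with resistance to imatinib in view.

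Many membrane receptors, among them those for chemokines and lipids, signal through heterotrimeric G proteins. The receptor loads the alpha subunit with GTP, and the alpha subunit and the freed beta-gamma pair then act on enzymes such as adenylyl cyclase and phospholipase C. RGS proteins bind the active alpha subunit and speed its hydrolysis of GTP, which shortens the signal. The R4 subfamily (here Rgs1, Rgs2, Rgs3, Rgs16 and Rgs18) is made up mostly of small proteins that are little more than an RGS domain, the R12 subfamily (Rgs10, Rgs12 and Rgs14) includes larger scaffolds, and Rgs19 belongs to the RZ subfamily.

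Every deposited value is a log2 difference from the parental array, whose own value is 0 in all 28815 probe sets, so expression levels were not analysed here and genes could not be ordered by level. The same holds for markers of the pro-B cell type, whose presence or absence was not analysed here. Taken over all genes, array A had a median difference of 0.0044, B of -0.077 and the array with IL-3 of 0.0085, and the SD of the difference between A and B was 0.196. With so few arrays, their number limits how precise any value is. Standard errors (SE) come from a limma fit over all genes, in which A against B is the only replicate difference and each lone array is taken to vary as much as they do. Since that fit leans on a spread shared by all genes, the SE is 0.15 to 0.17 (log2) for each RGS gene.

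The start-site windows of the gene with the widest gap to the parental array, Rgs2, and of Rgs16, another R4 gene, which stayed near it, are shown for comparison. Both are RefSeq sequences of build GRCm38.p6 that run 5′ to 3′ from 250 bases before the transcript start to 50 after it. Capitals mark matches, on either strand, to any of 6 motifs searched: TTCNNNGAA (STAT factors), TGACGTCA (the cyclic AMP response element), TGACG (a shorter part of that element), TGTTTAC (FOXO factors), CCAAT (the CCAAT box) and TATAAA (the TATA box). Each match to TGACGTCA also counts as one to TGACG. The Rgs2 window is chr1:144004100-144004399 on the minus strand, and the Rgs16 window is chr1:153740103-153740402 on the plus strand.
Rgs2: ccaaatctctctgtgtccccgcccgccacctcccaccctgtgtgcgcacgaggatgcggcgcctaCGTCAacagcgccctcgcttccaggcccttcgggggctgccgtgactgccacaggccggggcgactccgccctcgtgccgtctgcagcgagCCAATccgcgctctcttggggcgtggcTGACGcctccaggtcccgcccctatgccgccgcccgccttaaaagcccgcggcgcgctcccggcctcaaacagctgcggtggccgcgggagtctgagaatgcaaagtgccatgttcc
Rgs16: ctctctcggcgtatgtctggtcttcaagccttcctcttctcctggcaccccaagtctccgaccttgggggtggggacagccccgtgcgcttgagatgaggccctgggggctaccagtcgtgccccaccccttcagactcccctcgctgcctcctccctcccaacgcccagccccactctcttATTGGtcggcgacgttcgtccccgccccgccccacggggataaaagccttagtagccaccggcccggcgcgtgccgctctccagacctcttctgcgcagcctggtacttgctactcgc
The Rgs2 window holds TGACG on both strands, starting 185 bases before the transcript start on the strand opposite to the one printed and 67 before it on the printed strand, and CCAAT starting 94 bases before it. TGACG occurs in 20.8% of the 32851 windows of this length, and CCAAT in 37.4%. The Rgs16 window holds CCAAT on the opposite strand (printed as ATTGG), 68 bases before the start, while TGACG has no match in it. TTCNNNGAA, TGTTTAC and the full TGACGTCA, which occur in 8.3%, 3.65% and 1.79% of all windows, have no match in either window, nor has TATAAA, found in 13.6%. These matches describe letters and do not show that a factor binds. Both windows are rich in G and C, at 70% for Rgs2 and 66% for Rgs16, against a median of 52.7% over all windows. The table held windows for 6 of the 9 genes: Rgs2, Rgs3, Rgs10, Rgs12, Rgs16 and Rgs19.

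How RGS transcripts differ where the kinase stands in for the growth factor was asked by comparing arrays A and B (BCR-ABL, no IL-3) with the parental array (IL-3), the first comparison. Rgs2 lay far below the parental array and Rgs18 moderately below it. Rgs12 lay slightly below it and Rgs19 slightly above it, by like amounts, and Rgs1, Rgs3, Rgs14 and Rgs16 lay close to it. Of the 8 genes, 2 passed limma's threshold as lower (Rgs2 and Rgs18) and 0 as higher, where 2.87% of all genes were called lower and 5.19% higher (adjusted p under 0.05 over all genes). Because the genes were picked with these differences known, nothing is read from that count. The median difference over the 8 genes was -0.09 (log2), beside -0.04 over all genes, and 6 of the 8 lay within 0.5 of the parental array, as did 91.1% of all genes. In RNA from whole cultures, fewer cells that make a transcript and less of it in each cell cannot be told apart.

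**Figure D1:**
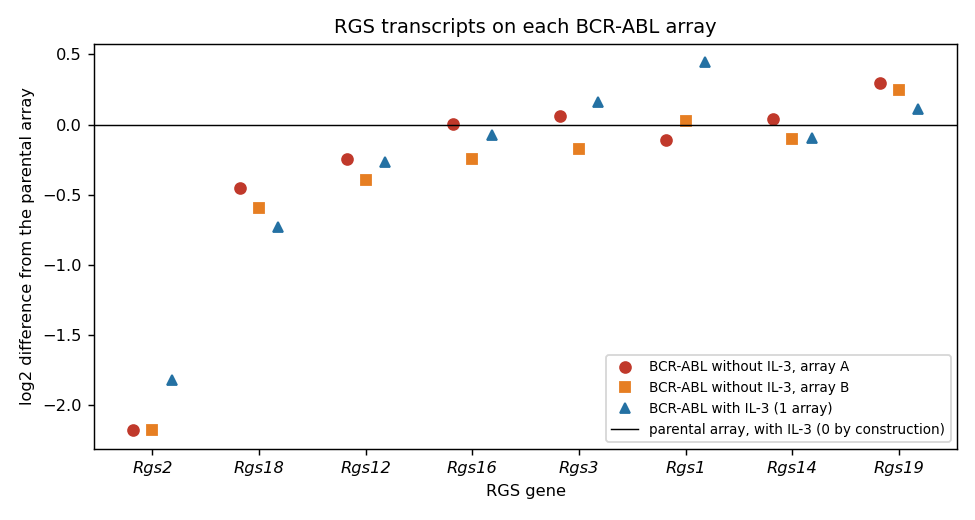
Log2 difference from the parental array (vertical axis) of the 8 measured RGS genes (horizontal axis), ordered by the mean of arrays A and B; each symbol is 1 array and the line at 0 is the parental array. Rgs2 stands alone at -2.18, -2.18 and -1.83, Rgs18 lies between -0.46 and -0.73, and the other genes lie between -0.40 and 0.44.

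Rgs2 encodes a small RGS protein known for acting on the Gq class of alpha subunits, which drive phospholipase C. It was -2.18 (array A), -2.18 (array B) and -1.83 (with IL-3) (log2 differences from the parental array). All 3 BCR-ABL arrays were low, and A and B agreed to 2 decimals, while the median gap between A and B over all genes was 0.13. The mean of A and B was 4.54-fold below the parental array (log2 -2.18, SE 0.15, n = 2 against 1). The array with IL-3 was 3.54-fold below it, a comparison of 1 array with 1. Rgs2 ranked 7 from the lowest of the 19935 genes in the first comparison. Among the RGS members only Rgs2 was at least 2-fold lower on both A and B, as were 0.406% of all genes, and 0 were 2-fold higher on both, as were 0.903% of all genes.

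Rgs18 encodes an R4 protein best known from platelets and their precursors, the megakaryocytes. It was -0.46 (array A), -0.59 (array B) and -0.73 (with IL-3). All 3 arrays lay below the parental one, and here the array with IL-3 was the lowest. The mean of A and B was 1.44-fold below the parental array (log2 -0.52, SE 0.16). It passed limma's threshold in the uncentred values, but not with arrays centred on their medians (log2 -0.49). Among 6 measured markers of red cells and megakaryocytes, 3 were called lower in the same comparison and 0 higher, with a median of -0.58. Of all genes 2.87% were called lower and 5.19% higher, with a median of -0.04. The markers were chosen with earlier results of these data known, so nothing is read from their count. Those called lower were the platelet glycoprotein gene Gp9 (-1.08), the erythroid factor Klf1 (-0.92) and the erythropoietin receptor gene Epor (-0.70). The platelet factor gene Pf4 stood at 0.03. Summed levels of these markers were not analysed here, and their part in the Rgs18 difference was not tested.

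Rgs1 encodes an R4 protein of lymphocytes that dampens signalling by chemokine receptors. It was -0.11 on array A and 0.02 on array B, so that A and B lay on either side of the parental array, and 0.44 on the array with IL-3. The mean of A and B was -0.05 (SE 0.16). Rgs1 thus stood at the parental value without IL-3 within its error, and was highest of the 4 arrays with IL-3, where it was 1.36-fold above the parental array.

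Rgs16, an inducible R4 gene, was 0.00073 (array A), -0.25 (array B) and -0.07 (with IL-3). The gap between A and B, 0.25, was wider than the mean difference from the parental array (-0.12, SE 0.16). Rgs3, whose protein exists in short and long forms, was measured by 2 probe sets, and the annotation lists some of the same transcripts under both. One gave -0.04, -0.18 and 0.04 on A, B and the array with IL-3, and the other 0.17, -0.17 and 0.29. The probe sets disagreed in sign on array A, and their average over A and B was -0.06 (SE 0.16). Neither Rgs16 nor Rgs3 can be placed above or below the parental array with these arrays.

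Of the R12 genes, Rgs12 and Rgs14 encode scaffolds that carry an RGS domain together with Ras-binding domains and a GoLoco motif, which holds inhibitory alpha subunits in the GDP-bound state. Rgs12 was -0.24 (array A), -0.40 (array B) and -0.27 (with IL-3). All 3 BCR-ABL arrays lay below the parental one, as they did for 31.5% of all genes, and the mean of A and B was 1.25-fold below it (log2 -0.32, SE 0.16), which did not pass limma's threshold. Rgs14 was 0.04 (array A), -0.11 (array B) and -0.10 (with IL-3), with a mean of A and B of -0.04 (SE 0.16). Rgs14 values thus scattered around the parental value, while those of its relative Rgs12 all lay under it.

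Rgs19, also called GAIP, encodes an RZ protein that acts on the inhibitory alpha subunits. It was 0.29 (array A), 0.25 (array B) and 0.11 (with IL-3). It was the only measured RGS member above the parental array on all 3 BCR-ABL arrays, as were 23.6% of all genes. The mean of A and B was 0.27 (SE 0.15) and did not pass limma's threshold, although A and B differed by only 0.05.

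Counted by sign, 3 of the 8 genes (Rgs2, Rgs12 and Rgs18) lay below the parental array on both A and B, 1 (Rgs19) lay above it on both and 4 were split. Over all genes 42.0% lay below on both and 27.9% above on both. Array B was below array A for 7 of the 8 genes, the exception being Rgs1, and for 66.2% of all genes. On array B, Rgs3, Rgs14 and Rgs16 all lay below the median over all genes, which is -0.077 there. The median of the 8 genes was -0.06 on array A and -0.21 on array B.

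In the second comparison the array of BCR-ABL cells with IL-3 was set against A and B, to see what IL-3 changes in cells that already express the kinase. It shares A and B with the first comparison, so a gene that is low in both arrays by chance is pushed down in the one and up in the other. Rgs1 and Rgs2 were higher on the array with IL-3 than on either A or B, Rgs3 was too by smaller and less even amounts, and Rgs18 and Rgs19 were lower than on either. The number of RGS members called by limma was 0 of 8, and of all genes 0.00502% were called, a single gene. At an unadjusted p under 0.05 there were 2 RGS members (Rgs1 and Rgs2) and 4.52% of all genes. Nothing is read from that count either, because the genes were picked with these differences known.

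Rgs1 was 0.56 above array A and 0.42 above array B, a mean of 1.40-fold (log2 0.49, SE 0.16, n = 1 against 2). It ranked 74 from the highest of 19935 genes in this comparison. Rgs2 was 0.36 above both A and B, or 1.28-fold (log2 0.36, SE 0.15), and ranked 248. With IL-3 it still lay 1.83 (log2) below the parental array. Its gap from A and B rests on 1 array with IL-3 and was not called, so the order of the BCR-ABL groups for Rgs2 is not settled. For Rgs1 the array with IL-3 was the highest, which was not called either. The other 2 groups did not differ for Rgs1 beyond the spread of A and B.

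Rgs3 was 0.10 above A and 0.34 above B. Rgs18 was 0.28 below A and 0.14 below B, with a mean difference of -0.21 (SE 0.16), and Rgs19 was 0.18 below A and 0.14 below B, with a mean of -0.16 (SE 0.15). For Rgs12, Rgs14 and Rgs16 the array with IL-3 lay between A and B. In all, 3 of 8 genes were above both arrays and 2 below both, beside 39.9% and 25.5% of all genes. These shares are close to the background, and the median difference over the 8 genes was 0.05, beside 0.03 over all genes.

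**Figure D2:**
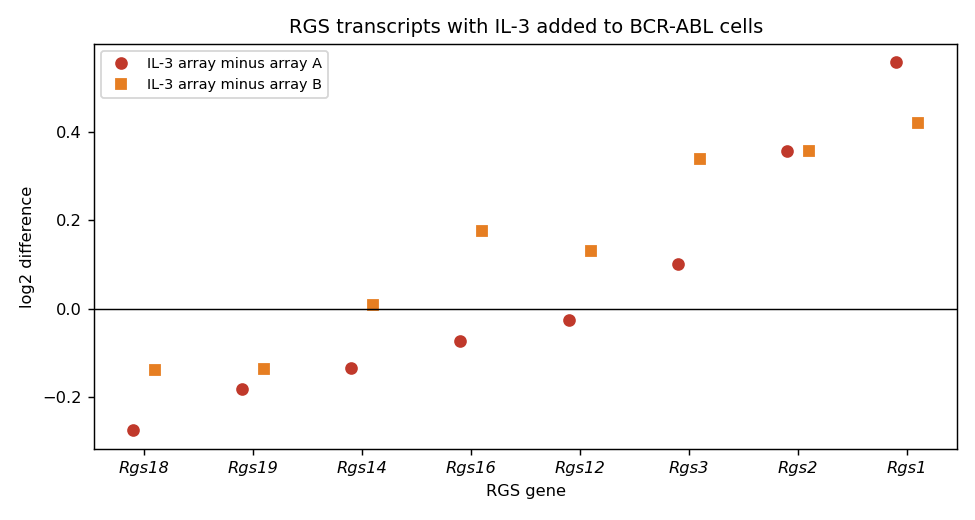
Log2 difference of the BCR-ABL array with IL-3 from array A and from array B (vertical axis) for the 8 measured RGS genes (horizontal axis), ordered by the mean. Rgs1 lies at 0.56 and 0.42 and Rgs2 at 0.36 from both arrays, while Rgs18 and Rgs19 lie below 0 against both.

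The last comparison, of BCR-ABL cells with IL-3 against parental cells with IL-3, holds the growth factor constant but has 1 array on each side and no replicate check. Rgs2 was 3.54-fold lower and was the only RGS member past a 2-fold difference, as 0.517% of all genes were downward and 1.1% upward. Rgs18 was 1.66-fold lower, Rgs12 1.20-fold lower and Rgs1 1.36-fold higher. The low Rgs2 value of BCR-ABL cells was therefore seen on arrays with and without IL-3, while Rgs1 lay above the parental value by more than the gap between A and B only on the array with IL-3.

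Several RGS genes are neighbours in the genome. In the RefSeq gene table of assembly GRCm38.p6, 5 of them follow one another with no other protein-coding gene between them, in the order Rgs2, Rgs13, Rgs1, Rgs21, Rgs18. Rgs2 and Rgs18 at the ends of this run were the lowest RGS members against the parental array. Between them, Rgs1 lay near 0 on A and B but at 0.44 with IL-3, and Rgs13 and Rgs21 lay near 0 on all 3 arrays. Rgs13 was -0.04 (array A), -0.0083 (array B) and -0.05 (with IL-3). Rgs21 was -0.05 (array A), -0.05 (array B) and -0.07 (with IL-3). Beyond the ends, Uchl5, which encodes a deubiquitinating enzyme and lies next to Rgs2, stood at 0.66 (mean of A and B), and Brinp3, next to Rgs18, at 0.10. The genes of the run thus did not share 1 difference. Rgs16 lies beside Rgs8, which was 0.15 (array A), -0.21 (array B) and 0.08 (with IL-3).

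**Figure D3:**
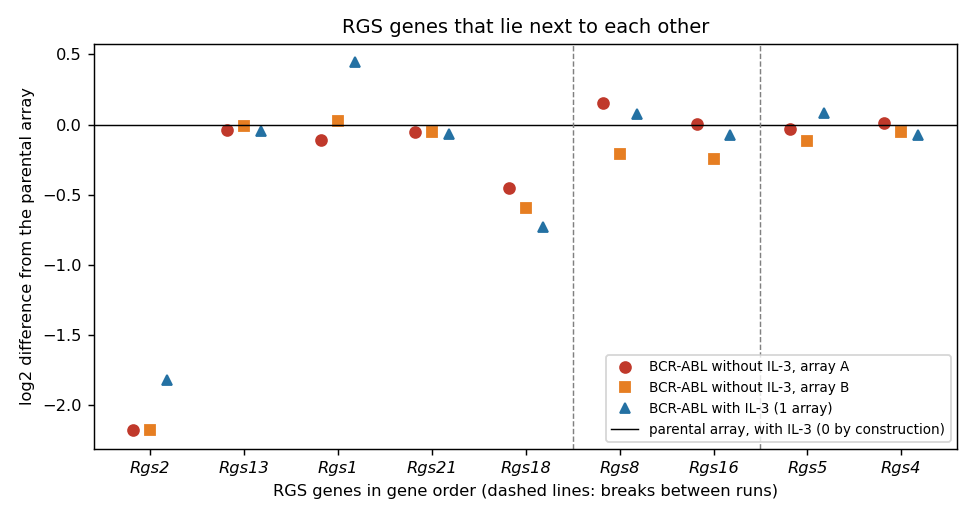
Log2 difference from the parental array (vertical axis) on each BCR-ABL array for RGS genes that lie next to one another, in gene order along the horizontal axis; dashed lines separate runs and distances are not drawn to scale. In the run of 5 genes, Rgs2 and Rgs18 lie below 0 on all 3 arrays and Rgs13 and Rgs21 lie between -0.07 and 0.

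The 12 other RGS genes of the family are given beside the named ones. They cannot show how common such differences are outside the named list. Of their 12 probe sets 10 carry the mark of dim signal described below, and the named genes were picked with their differences known. Rgs11, of the R7 subfamily, which pairs with the beta subunit Gnb5, was lower. It was -1.16 (array A), -1.15 (array B) and -0.66 (with IL-3). The mean of A and B was 2.22-fold below the parental array (log2 -1.15, SE 0.15, limma adjusted p = 7.29e-05, and adjusted p = 0.0111 once arrays were centred). With IL-3 it was 0.50 above the mean of A and B, which was not called (limma adjusted p = 0.657), and its rank there, 68 from the highest, is near that of Rgs1. The other 11 genes lay within 0.5 of the parental array in the mean of A and B, and 0 of the 12 were called higher. Of all genes 91.1% lay within 0.5 of it, 5.19% were called higher and 2.87% lower. Their median was -0.06.

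**Figure D4:**
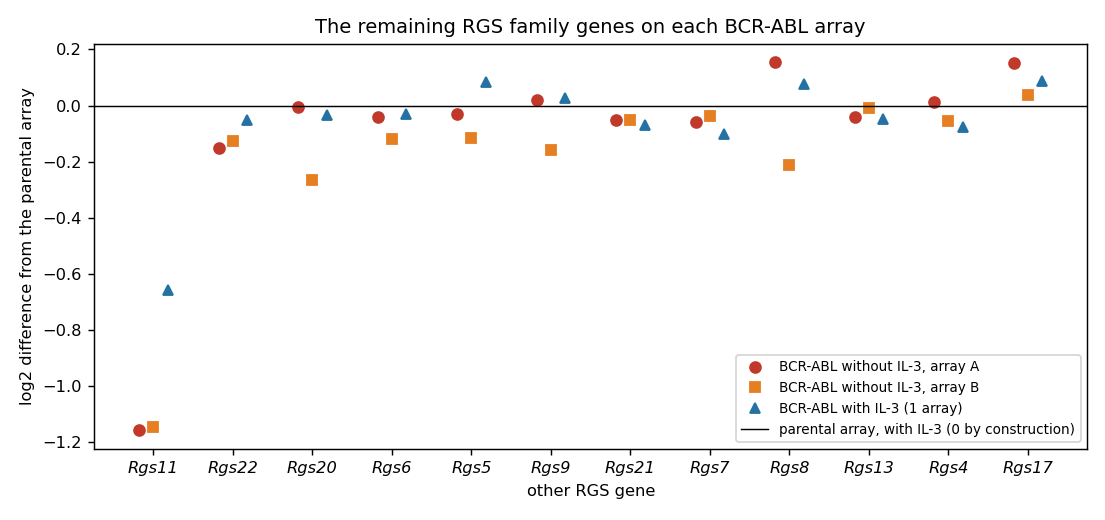
Log2 difference from the parental array (vertical axis) on each BCR-ABL array for the 12 RGS genes outside the named list (horizontal axis), ordered by the mean of A and B. Rgs11 lies at -1.16, -1.15 and -0.66, and the other 11 lie between -0.26 and 0.15 on every array.

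How the values were stored gives a rough mark of dim probe sets. A difference that is an odd multiple of 2 raised to minus 21 shows that one of the stored numbers was below 8 on the log2 scale. This held for 11162 of all 28815 probe sets. It held for 10 of the 12 probe sets of the other RGS genes and for 0 of the 9 probe sets of the named genes. The named genes were picked with values of these arrays known, so nothing is read from that gap. Rgs11 and Rgs22 were the other probe sets without this mark. The mark can be missing by chance, so its absence does not show that a transcript is abundant.

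The genes whose values over the 3 BCR-ABL arrays lay closest to those of Rgs2, by Euclidean distance of the log2 differences, were Tspan13 (distance 0.11), Nme7 (0.25), Gsta4 (0.25) and Il15 (0.32). Tspan13, a tetraspanin gene, was -2.10, -2.17 and -1.76 on A, B and the array with IL-3, and only 2 genes lay within a distance of 0.25 of Rgs2. The genes closest to Rgs19, the member with the largest rise, were Trappc4 (0.0069), Psmg4 (0.028), Mrfap1 (0.035) and Trappc5 (0.036). Within 0.25 of Rgs19 lay 1628 genes, since most genes sit near 0, so likeness to Rgs19 distinguishes little.

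Genes of the surrounding pathway, which hold none of the named RGS genes, were counted in the first comparison by limma at an adjusted p under 0.05 over all genes. Over all lists 139 genes were measured, of which 7 were called higher and 8 lower, and their median was -0.07. Beside the 5.19% and 2.87% of all genes, these counts were not tested against the rest. With arrays centred on their medians 4 were called higher and 6 lower, beside 3.2% and 1.5% of all genes.

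The G-protein subunit genes lay mostly near the parental array, as most genes did. Within 0.5 of it, in the mean of A and B, lay 14 of 14 alpha and 16 of 17 beta and gamma genes. Of all genes 91.1% did. Of 14 alpha subunit genes 0 passed by limma, with a median of -0.02. The largest alpha subunit differences were 0.33 (SE 0.15, adjusted p = 0.281) for Gna12 and 0.31 (SE 0.16, adjusted p = 0.352) for Gna15, the blood-cell member of the Gq class. Of 17 beta and gamma genes only Gnb4 passed. It was -1.06 (array A), -0.88 (array B) and -0.95 (with IL-3), and it was 1.96-fold lower in the mean of A and B (adjusted p = 0.000516).

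The counts in the next lists stand beside 5.19% of all genes called higher and 2.87% lower, and were not tested against those shares. Among the measured receptor kinases and arrestins, which switch off and sequester active receptors, 1 of 7 was called. Arrb1, the beta-arrestin 1 gene, was -0.91 (array A), -0.83 (array B) and -0.43 (with IL-3). It was 1.83-fold lower without IL-3 than in the parental cells (limma adjusted p = 0.00119). Of 10 genes of GoLoco proteins, exchange factors and RGS partners 0 passed. The largest differences there were -0.21 for the exchange factor gene Ric8b (limma adjusted p = 0.648) and 0.20 for Gipc1 (adjusted p = 0.717), whose protein binds Rgs19. Of 9 genes for other proteins with an RGS-like domain 0 passed, and the sorting nexin genes Snx25 and Snx13 stood furthest from 0 at -0.49 and 0.38. Of 16 effector enzyme genes only Pik3cg, the PI3-kinase that beta-gamma subunits activate, was called. It was 0.99 (array A), 0.92 (array B) and 0.94 (with IL-3), 1.94-fold higher in the mean of A and B (limma adjusted p = 0.000499).

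The receptor list held most of the calls and was also the largest, with 54 of the 139 genes measured. Of these 54 G-protein-coupled receptor genes of blood cells 6 were called higher and 5 lower, with a median of -0.08. Of all genes 5.19% were called higher and 2.87% lower. After centring 3 receptor genes were higher and 3 lower, beside 3.2% and 1.5% of all genes. These counts were not tested against the rest. The chemokine receptor gene Cxcr2 was 1.41 (array A), 1.32 (array B) and 1.25 (with IL-3), and was 2.58-fold higher in the mean of A and B (limma adjusted p = 1.21e-05). The complement receptor gene C3ar1 (0.82), the chemokine receptor gene Ccr4 (0.72) and the cannabinoid receptor gene Cnr2 (0.68) were called higher too. After centring they lost their calls, although their differences were no smaller (0.86, 0.76 and 0.71). The receptor genes Gpr132 (0.64) and Ptgir (0.61) were called higher before and after centring. For C3ar1 and Cnr2 arrays A and B differed widely, at 1.14 and 0.51 and at 0.99 and 0.37.

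Cxcr4, the receptor for the chemokine that holds blood precursors in the bone marrow, was lower. It was -1.11 (array A), -1.13 (array B) and -0.67 (with IL-3), 2.18-fold lower in the mean of A and B (limma adjusted p = 9.26e-05). Gpr34 and the monocyte chemokine receptor gene Ccr2 were 2.04-fold lower each, with limma adjusted p = 0.000597 and 0.000553. The gene for the receptor of platelet-activating factor, Ptafr, was at -0.68 and lost its call after centring. So did Lpar2, the remaining receptor gene called lower, at -0.60. Cxcr4, like Rgs2, Rgs11, Arrb1 and Gpr34, was less far below the parental array with IL-3 than without. The gap for Cxcr4 was 0.46, but it was not called in that comparison either. Gnb4, Ptafr, Lpar2, Ccr2 and Rgs18 were called lower too. With IL-3 they differed from the mean of A and B by 0.03, 0.01, 0.06, -0.11 and -0.21. Of all genes 39.9% lay above both A and B with IL-3, and the shared A and B push low genes up there.

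**Figure D5:**
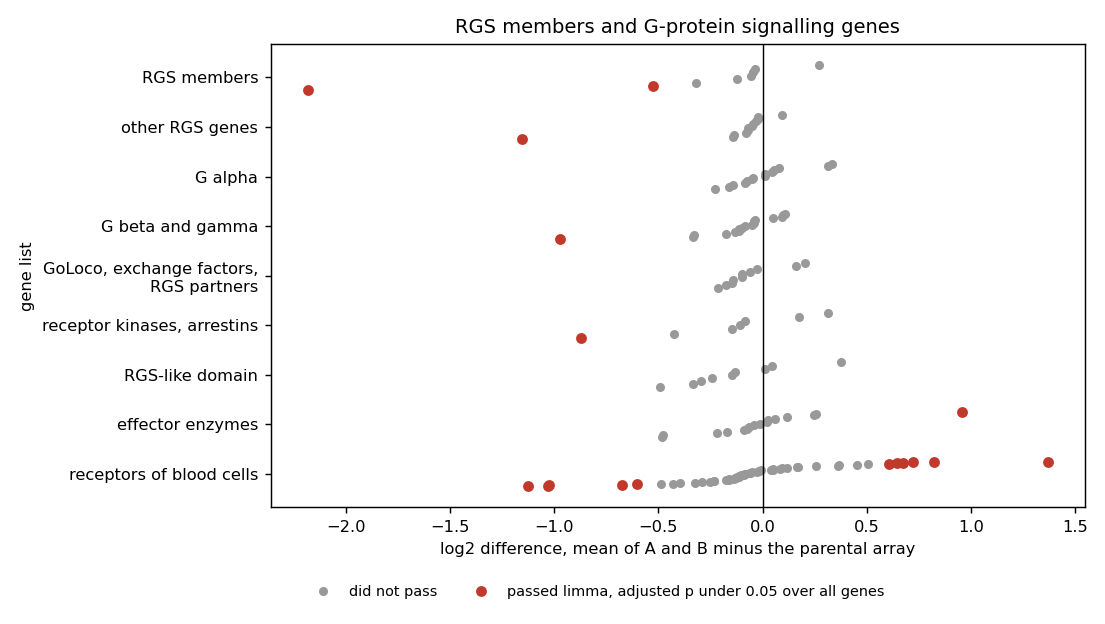
Log2 difference of the mean of arrays A and B from the parental array (horizontal axis) for the 8 RGS genes and for 8 lists of G-protein signalling genes (vertical axis); each point is 1 gene, and red points passed limma's test at an adjusted p under 0.05 over all genes. Rgs2 at -2.18 lies lowest, below Rgs11 at -1.15 and Cxcr4 at -1.12, and Cxcr2 at 1.37 lies highest.

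Markers of other blood cells were counted in the same comparison, since RGS genes differ between blood cell types. Of all genes 5.19% were called higher and 2.87% lower, and the marker counts were not tested against those shares. Of 9 measured B-lineage markers and 8 T and NK cell markers 0 passed by limma, with medians of -0.10 and -0.13. Of 10 mast cell and basophil markers 2 were called higher and 1 lower. Cpa3, a mast cell carboxypeptidase, stood at 3.04, Hdc at 0.74 and the chymase Cma1 at -0.90. With arrays centred on their medians Hdc stood at 0.77 and lost its call (limma adjusted p = 0.0554). Of 8 neutrophil and monocyte markers only the granulocyte factor Cebpe was called, lower at -0.76. The part of any of these in the RGS values was not tested.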

How the data were processed

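Per the labels' protocols, RNA was converted to biotin-labelled sense-strand cDNA and hybridised to Gene 1.0 ST arrays. The authors' background correction, normalization and probe summary were not given in the sources used here. The deposited values were read as log2 differences from the parental array: that column is 0 throughout, and 99.8% of the 86445 other values are multiples of 2 raised to minus 21 within 0.25 of that step, the step at which single-precision values from 4 to 8 are stored.

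The platform annotation gave 1 symbol to 21780 probe sets, several to 1605 and none to 5430; those with 1 were averaged per gene, with no filter. All 4 arrays were fitted with 3 group means in limma 3.58.1 (R 4.3.3), two-sided, with Benjamini-Hochberg adjustment. The fit has 1 residual degree of freedom and a prior of 16.4. On simulated data it recovered the changed genes, but the share of false calls passed the nominal threshold in each draw, so calls near the threshold are uncertain.

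The RGS genes, pathway lists, markers and motifs were chosen with earlier results of these data known. From each pathway list the naming rule took up to 4 called genes in each direction with the largest differences, or the 2 largest where none was called, and it took the 4 genes most like Rgs2 and like Rgs19, leaving out predicted genes. Uchl5, Brinp3, Rgs8, Rgs13, Rgs21, Rgs22, Gpr132, Ptgir and Lpar2 fall outside it and were named as neighbours or after their values were seen. Alternatives centred arrays on their medians, took the probe set with the largest difference, left out dim probe sets, used robust empirical Bayes, a threshold of 0.1 or only the groups compared, or left out A or B.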

Additional observations from a re-analysis of the deposited data

How the results depend on the processing

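The median of the 8 RGS genes in BCR-ABL cells without IL-3 against parental cells was -0.09. It was -0.21 without array A, -0.056 without array B and -0.053 with arrays centred. In the comparison with IL-3 the median was 0.05, 0.15 without A and -0.05 without B, so its sign rests on B. The other settings kept each median within the spread of A and B. Centring moved the genes called in the first comparison from 1035 to 637 higher and from 572 to 299 lower, and ended the call of Rgs18. A call could be lost without a smaller difference, because p-values were weaker in the centred fit. Cxcr2, for one, went from 1.37 to 1.41, while its limma adjusted p rose from 1.21e-05 to 0.0051. The IL-3 comparison had 1 called gene, 0 after centring (limma, with 948 at an unadjusted p under 0.05), 8 with the probe set of the largest difference and 2 at a threshold of 0.1. Counts of calls without A or B were not run, because no residual degree of freedom is left. No paired analysis was possible because only 1 group has more than 1 array. Of the 8 genes, 3 lay below the parental array on both A and B and 4 after centring, a setting chosen after seeing the data for this count. Signal over background was not analysed here.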
